A study of Mus musculus with 24 samples.

Results

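The hippocampus of mice with a grandfather on a methyl donor-rich diet (MD F2) was compared with that of mice with a grandfather on the control diet (CD F2), to ask whether a diet given to males before mating left a trace in brain gene expression of their grandchildren. The comparison took 12 of the 24 arrays of the series, 6 per diet, chosen by their sample titles. The grandfathers were C57BL/6J males that received either diet for 6 weeks and were then mated with 129S6/SvEv females. The methyl donor-rich diet (3MS ZM) was supplemented with L-methionine (7.5 g), choline (15 g), betaine (15 g), folic acid (15 mg), vitamin B12 (1.5 mg) and zinc (150 mg), and the control diet came from Envigo. The F2 mice are labelled mixed C57BL/6J x 129S6/SvEv hybrids with an age of 4 weeks, whereas the study's text calls the offspring adult. They descended from F1 sons of either group of males mated with F1 daughters of control-diet males, were themselves kept on the control diet, and gave each array the hippocampal RNA of a pool of 4 mice. The CD F1 and MD F1 arrays used at the end, 6 per diet, came from the children of the treated males. In the F2 labels, replicates 1 to 3 of both diets carry the code lh and replicates 4 to 6 the code rh, whose meaning is not stated, and the code was a term of the model.

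Methyl donors feed the one-carbon and methionine cycles, which make S-adenosylmethionine, the substrate of the DNA methyltransferases. The hippocampus, a region needed for spatial and contextual memory, is built from the granule cells of the dentate gyrus and the pyramidal cells of the CA fields. It borders the lateral ventricle, which is lined by ependymal cells with beating (motile) cilia and contains the choroid plexus, the epithelium that makes cerebrospinal fluid. In RNA of a whole dissected tissue, fewer cells of a type and less RNA per cell cannot be told apart.

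Expression is given as log2 intensity after quantile normalization of the 12 arrays, and an effect as the MD F2 minus CD F2 difference on that scale. Of 39429 probes, 24159 were well above background on all 12 arrays and were tested. They covered 13975 genes, each represented by its brightest probe where a list is counted. Of the dentate granule cell markers 13 of 16 and of the CA field markers 17 of 19 passed this filter. Median raw intensity per array lay between 148.2 and 262.0, and 32809 to 34661 spots were above background on 10 arrays, but 28000 on CD F2 replicate 6 and 27383 on MD F2 replicate 3. These measures, the irregular spots, the mean correlation with the other arrays and a sex measure (the mean of Y-linked genes minus Xist, the X-inactivation RNA) did not separate the diets (exact permutation test over 924 splits, two-sided, unadjusted p between 0.160 and 0.773, 0.741 or higher after adjustment over 5 tests). Xist was above background and Ddx3y was not on 3 arrays (CD F2 replicates 3 and 5, MD F2 replicate 6), the reverse held on the other 9, and no label gives the sex of the pools. Nothing in the labels ties the pools to litters or cages, so p-values measure the spread between these arrays. MD F2 replicates 4 and 5 correlated at 0.99864 and MD F2 replicates 1 and 3 at 0.99664. No other array correlated above 0.99429 with any array. Whether these pairs were independent pools was not tested. The model took all 12 arrays as independent, and its p-values would be too small if the pairs were not.

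At a false discovery rate (FDR) under 0.1, 9 probes were lower in MD F2 (0.0373% of those tested) and 0 were higher (0%). At an unadjusted p under 0.05 in limma, 946 probes were lower and 1250 higher, together 9.09% of those tested. The 9 probes were those of Crygn, Hoxb3, Ajuba, Sfrp1, Prag1, Fos, Zfp882 and Msx1 and the probe A_55_P2097938, which has no symbol here. They were lower by between 1.50-fold and 2.63-fold, and 3 of them also passed an FDR of 0.05, at 0.0470. With a diet term alone in place of diet and code, 0 probes were called (1865 at an unadjusted p under 0.05), and 0 were called without CD F2 replicate 6 and MD F2 replicate 3 (1400 at p under 0.05). Leaving out 1 array at a time gave between 0 calls (without CD F2 replicate 1, 4, 5 or 6 or MD F2 replicate 1, 4 or 5) and 25 (without MD F2 replicate 2). With slide as a block 6 probes were called, 5 of the 9 among them, while Ajuba (FDR = 0.102), Prag1 (0.117), Fos (0.12) and Zfp882 (0.127) were no longer past the threshold in limma. All 9 kept their direction in these fits, within the lh arrays, within the rh arrays and within each of the 3 slides, where their differences ran from -2.02 to -0.22 (2 pools per diet and slide, no test).

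**Figure D1:**
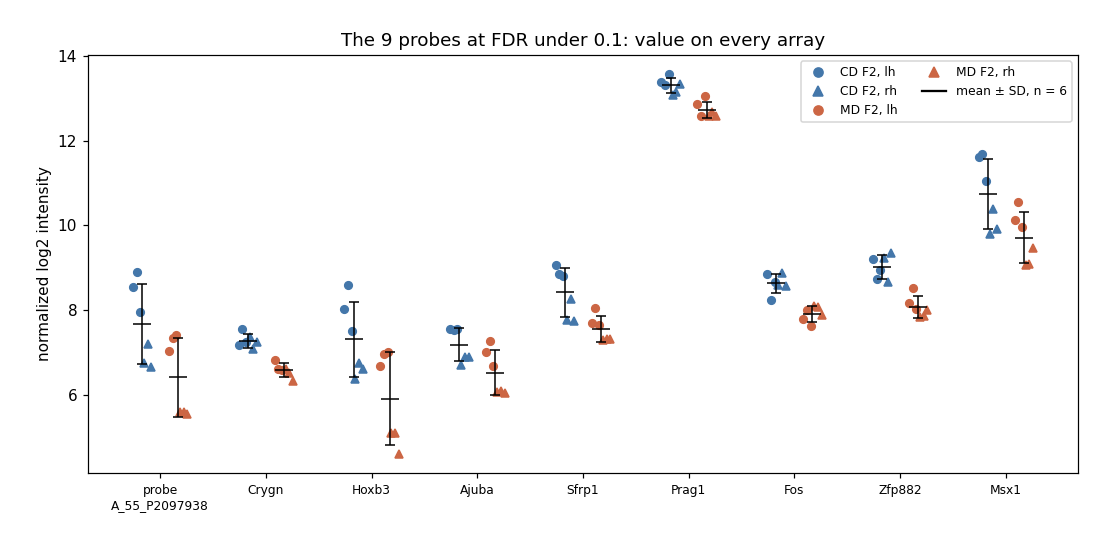
Normalized log2 intensity (y axis) of the 9 probes at FDR under 0.1 on every array, CD F2 in blue and MD F2 in orange, circles for lh and triangles for rh, with mean and SD in black. For Crygn, Prag1, Fos and Zfp882 every MD F2 array lies below every CD F2 array, and for Hoxb3 and probe A_55_P2097938 the lh and rh arrays form separate levels within each diet.

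Crygn codes for gamma-N crystallin, of the family of lens crystallins that is also expressed at low level in neural tissue. Its log2 level was 7.07 to 7.56 in CD F2 (median 7.24) and 6.32 to 6.81 in MD F2 (median 6.59). Every MD F2 array was below every CD F2 array. The effect was -0.69 ± 0.09 (SE, n = 6 per diet), or 1.62-fold lower (limma, FDR = 0.0470). Among 16 crystallin genes tested, Cryba4 showed the opposite separation, with all MD F2 arrays (7.83 to 7.97) above all CD F2 arrays (6.97 to 7.75) and an effect of 0.58 that did not pass the threshold (FDR = 0.211).

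Fos, the immediate early gene whose product forms the AP-1 factor and which is induced by neuronal activity, ranged from 8.23 to 8.86 in CD F2 (median 8.62) and from 7.62 to 8.10 in MD F2 (median 7.94). The groups did not overlap. Fos was 1.65-fold lower in MD F2, an effect of -0.72 ± 0.11 (SE, n = 6 per diet; limma, FDR = 0.0978). Prag1, a pseudokinase, was the brightest of the called probes at 13.08 to 13.58 in CD F2 and 12.59 to 13.06 in MD F2, with an effect of -0.58 ± 0.09 (SE; limma, FDR = 0.0829). Its other probe gave -0.52 (FDR = 0.481). Zfp882, a zinc finger gene, ran from 8.67 to 9.35 in CD F2 and from 7.84 to 8.52 in MD F2, 1.93-fold lower (limma, FDR = 0.0978). It has 3 probes that disagree, since the other ones gave 0.08 and 0.02, so the difference belongs to what the called probe detects. Across all genes, every MD F2 array lay below every CD F2 array for 25 (0.179%) and above it for 38 (0.272%).

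The other 4 called genes with a symbol code for regulators of patterning and cell signalling, and all 4 followed the level of choroid plexus genes described further on. Their correlation with it over the 12 arrays was 0.82 for Hoxb3, 0.87 for Ajuba and 0.92 for Sfrp1 and Msx1, and 1.85% of all probes tested were above 0.8. Hoxb3, a homeobox factor of hindbrain patterning, was 2.63-fold lower, the largest change of the 9, with an effect of -1.40 ± 0.18 (SE; limma, FDR = 0.0470). Its level ran from 6.36 to 8.58 in CD F2 (median 7.13) and from 4.6 to 7.02 in MD F2 (median 5.89). The groups overlapped, with lh arrays above rh arrays in both diets. Among the lh arrays MD F2 (6.68 to 7.02) was below CD F2 (7.49 to 8.58), and among the rh arrays MD F2 (4.6 to 5.10) was below CD F2 (6.36 to 6.76). Msx1, a homeobox factor expressed in choroid plexus and roof plate derivatives, ran from 9.81 to 11.69 in CD F2 and from 9.07 to 10.56 in MD F2 (2.05-fold lower, FDR = 0.0978 in limma). Sfrp1, a secreted inhibitor of Wnt signals, ran from 7.74 to 9.07 and from 7.28 to 8.05 (1.82-fold lower, FDR = 0.0829 in limma). Ajuba, a LIM-domain scaffold protein, ran from 6.70 to 7.55 and from 6.03 to 7.27 (1.58-fold lower, FDR = 0.0808 in limma).

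Just outside the threshold at FDR = 0.103 stood Ifi30, a lysosomal thiol reductase (effect -0.49), Foxj1 (-0.58) and Pdzd2 (0.52). Pdzd2, which codes for a protein with PDZ domains, had the smallest p of the probes that were higher. Its levels were 8.34 to 8.87 in CD F2 and 9.06 to 9.45 in MD F2, without overlap. Of the 12 probes with a symbol and the smallest p in this direction, those of Ccno (0.35), Lhx6 (0.27), Spryd7 (0.39) and Cpsf4 (0.34) also had every MD F2 array above every CD F2 array. Cpsf4 codes for a subunit of the polyadenylation complex and Ccno for a cyclin of multiciliated cells. The others were probes of Tfrc (0.58), Megf6 (0.38), Spin1 (0.38), Asb11 (0.54), Pa2g4 (0.52), Gadd45gip1 (0.57) and Tti2 (1.01), and their FDR lay between 0.129 and 0.209. The brightest probes of Tfrc, the transferrin receptor, of Lhx6, a factor of interneuron development, and of Spin1, a histone reader, gave 0.14, 0.04 and -0.09, and that of Spryd7 gave 0.05. Dimmer probes of Pa2g4 gave 0.01 and 0.27, and the dimmer Gadd45gip1 probe gave -0.81, opposite to the printed one. The printed probes of these 6 genes thus do not speak for the whole gene.

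**Figure D2:**
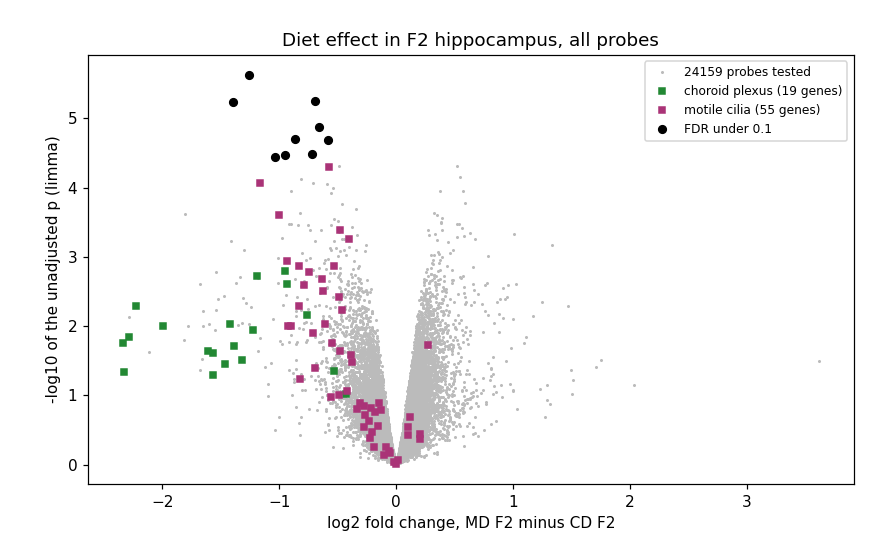
Effect (x axis, log2 fold change MD F2 minus CD F2) against -log10 of the unadjusted p (y axis) of the 24159 probes tested, with the 9 called probes in black and the brightest probes of the choroid plexus and motile cilia genes in green and purple. All 19 choroid plexus genes and 48 of the 55 cilia genes lie left of 0, and the choroid plexus genes have large effects at modest p.

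The largest effects in named groups belonged to the choroid plexus. Of 26 listed genes 19 were tested, and all 19 had effects below 0, with a median of -1.42, against 0.00 over all 13975 genes. At an unadjusted p under 0.05, 17 of the 19 were lower and 0 higher, whereas 4.53% of all genes were lower and 4.07% higher at this threshold, and 0 of the 19 passed an FDR of 0.1. The list held Ttr, the thyroxine carrier of cerebrospinal fluid (-2.33), Folr1, the folate receptor of the epithelium (-2.23), Kcnj13, a potassium channel (-2.34), Otx2, a homeobox factor (-1.995), and Kl, the anti-ageing hormone klotho (-1.31). Ttr showed how the pools differed. Its log2 level was 17.96, 17.86, 17.79, 10.04, 17.46 and 11.47 in CD F2 replicates 1 to 6, and 14.24, 17.59, 14.23, 10.82, 10.73 and 11.00 in MD F2 replicates 1 to 6. The levels were thus high on 4 CD F2 arrays and 1 MD F2 array, intermediate on 2 MD F2 arrays and low on the other 5. The 2 intermediate arrays, and MD F2 replicates 4 and 5 among the low ones, are the closely correlated pairs whose independence was not tested.

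The mean level over the 19 genes placed the same arrays high, intermediate and low. It was 11.59 to 12.37 on CD F2 replicates 1, 2, 3 and 5 and 11.70 on MD F2 replicate 2, 9.71 on MD F2 replicates 1 and 3, and 8.61 to 8.86 on the other 5 arrays. The diet and the code together accounted for 69.8% of the variance of this level over the 12 arrays. Within the lh arrays the median effect of the list was -1.99, and within the rh arrays it was -0.92. Among the rh arrays only CD F2 replicate 5 was high (11.59), and the others of both diets lay at 8.61 to 8.86. By slide the median effect was -2.60 on slide 1, 0.26 on slide 2, where no array was high, and -2.10 on slide 3. The number of genes lower at an unadjusted p under 0.05 was 4 with diet as the only term, 1 within the rh arrays, 11 without MD F2 replicate 1 or replicate 3, and 17 without CD F2 replicate 6 and MD F2 replicate 3 together. Over the 12 arrays the correlation of the called probes with this level was above 0.8 for 5 of the 9, A_55_P2097938 (0.87) and the 4 genes given before. It was 0.40 to 0.55 for Zfp882, Fos, Crygn and Prag1. Effects of the called probes with this level as a covariate are given in the account of the cilia genes. The part of the level in their differences was not tested. Whether the pools differed in the amount of choroid plexus in the dissected tissue or in its expression cannot be told apart.

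**Figure D3:**
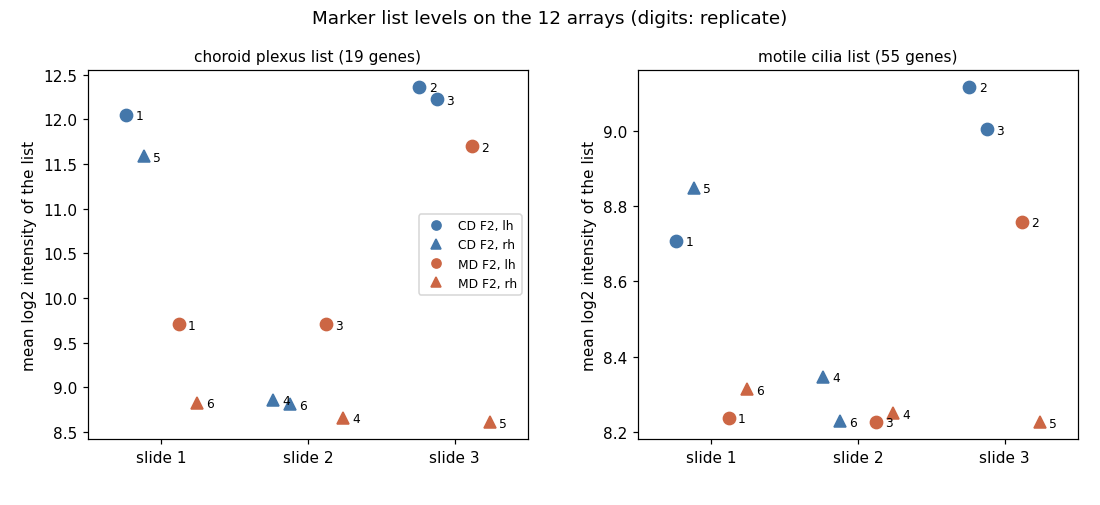
Mean log2 intensity (y axes) of the choroid plexus genes (left) and of the motile cilia genes (right) on each array, by slide (x axis), with CD F2 in blue, MD F2 in orange, circles for lh, triangles for rh and digits for the replicate number. The 5 arrays with choroid plexus levels of 11.59 to 12.37 are also the 5 with the highest cilia levels, 8.71 to 9.12 against 8.22 to 8.35 on the other 7.

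Genes of motile cilia, the axonemal machinery of ependymal cells, had a median effect of -0.38 over 55 tested genes. In MD F2 24 were lower and 1 was higher (Ccdc103, 0.27) at an unadjusted p under 0.05, against 4.53% and 4.07% of all genes. None of the 55 passed an FDR of 0.1. Foxj1, the master transcription factor of motile ciliogenesis, ran from 9.89 to 10.98 in CD F2 (median 10.34) and from 9.42 to 10.28 in MD F2 (median 9.77), with an effect of -0.58 ± 0.09 (SE; limma, FDR = 0.103). Cfap52, an inner protein of the ciliary doublets, ran from 8.51 to 9.98 in CD F2 and from 7.80 to 9.34 in MD F2 (-1.16, FDR = 0.127 in limma). Dnaaf3, an assembly factor of the dynein arms, ran from 7.52 to 9.26 and from 6.62 to 8.45 (-0.997, FDR = 0.200 in limma). Only Cfap45 and Ccdc153 of the 55 had every MD F2 array below every CD F2 array. Effects of -0.94 for Cfap126, -0.83 for Dnali1, a dynein light chain, and -0.69 for Tekt1, a filament protein, were of the same size.

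The cilia levels followed the choroid plexus levels from array to array. By slide the cilia median was -0.50, -0.02 and -0.58 on slides 1, 2 and 3. With the choroid plexus level as a covariate beside the code, a setting chosen after the data were seen, the cilia median was -0.02 and 12 genes were lower and 3 higher at an unadjusted p under 0.05. Over all 24159 probes, 2769 were lower and 2854 higher at that threshold with this covariate. In that fit Foxj1 had an effect of -0.49, Cfap52 of -0.72 and Dnaaf3 of -0.53. The effects of the 9 called probes were between -0.55 and -1.33 in it. Those of Msx1 and Sfrp1 moved from -1.03 to -0.69 and from -0.87 to -0.57, while those of Crygn and Zfp882 were -0.79 and -1.11. That fit called 1505 probes at FDR under 0.1, 865 lower and 640 higher. Of these, 337 had an unadjusted p under 0.05 without the covariate. All 9 were among the 1505, but each had a larger unadjusted p than without the covariate (Fos 0.00127 against 3.25e-05 in limma). The FDR depends on the p of all probes, so staying under 0.1 there is read as no result about the 9.

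Promoters of cilia genes are shown for a sequence that part of them hold and that the choice of the list did not use. RFX factors, which act with Foxj1 in ciliated cells, bind the X-box, whose half-site is GTTGCC. Windows from 250 bases before to 50 bases after the RefSeq start (build GRCm38.p6, first window per gene) were searched on both strands. The letters were present in 25 of 46 cilia promoters found (54.3%), in 2 of 14 choroid plexus promoters (14.3%) and in 12.7% of all 27025 promoters. The 25 cilia genes with the half-site had a median effect of -0.22 and the 21 without it of -0.40. The 3 genes with the half-site and the smallest p among the cilia genes lower in MD F2 were Cfap161 (-0.48), Dnaic2, a dynein intermediate chain (-0.53), and Dynlrb2, a dynein light chain (-0.75). Their windows are printed 5′ to 3′ on the gene's strand, with the half-site on either strand in capitals.
Cfap161, chr7:83794790-83795089, minus strand: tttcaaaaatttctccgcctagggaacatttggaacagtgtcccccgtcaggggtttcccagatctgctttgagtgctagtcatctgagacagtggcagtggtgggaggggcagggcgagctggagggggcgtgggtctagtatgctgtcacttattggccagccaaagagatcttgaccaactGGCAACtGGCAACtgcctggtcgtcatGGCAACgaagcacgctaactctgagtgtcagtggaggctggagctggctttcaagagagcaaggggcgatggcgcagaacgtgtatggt
Dnaic2, chr11:114727169-114727468, plus strand: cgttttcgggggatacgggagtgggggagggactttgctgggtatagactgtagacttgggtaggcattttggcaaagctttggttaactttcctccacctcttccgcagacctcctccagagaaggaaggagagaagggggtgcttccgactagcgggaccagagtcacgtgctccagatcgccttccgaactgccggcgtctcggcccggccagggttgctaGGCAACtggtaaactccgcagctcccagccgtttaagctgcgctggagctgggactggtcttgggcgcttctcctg
Dynlrb2, chr8:116504765-116505064, plus strand: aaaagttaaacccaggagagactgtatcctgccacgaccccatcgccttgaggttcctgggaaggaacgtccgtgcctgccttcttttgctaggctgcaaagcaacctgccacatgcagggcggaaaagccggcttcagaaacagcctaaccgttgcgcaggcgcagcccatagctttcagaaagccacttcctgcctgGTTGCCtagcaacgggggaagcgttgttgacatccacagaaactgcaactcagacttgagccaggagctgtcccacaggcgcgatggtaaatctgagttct

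Cells of vessels and meninges formed a further non-neuronal group, with a median effect of -0.14 over 32 genes. Of these, 4 were lower and 0 higher at an unadjusted p under 0.05, against 4.53% and 4.07% of all genes. Col1a2 and Col1a1, the chains of fibrillar type I collagen, had effects of -0.53 ± 0.11 and -0.44 ± 0.09 (SE; limma, FDR = 0.200 and 0.212). Col1a2 ran from 12.15 to 12.91 in CD F2 and from 11.57 to 12.21 in MD F2, and the groups overlapped. Igf2, an imprinted growth factor made by meninges and choroid plexus, had an effect of -0.76 (limma, FDR = 0.376). With the choroid plexus level as a covariate the effect of Col1a2 was -0.51, and without MD F2 replicate 6 the list had 11 genes lower at p under 0.05. Astrocyte, oligodendrocyte, microglia and red blood cell lists had medians of -0.03, -0.01, -0.0035 and -0.12, with 2, 1, 1 and 0 genes lower and 0 higher at that threshold. Beside the shares of all genes, these counts are read as no result about the lists.

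Immediate early genes, which neurons induce within minutes of activity, had a median effect of -0.08 over 41 genes, with 5 lower and 2 higher at an unadjusted p under 0.05, where 4.53% of all genes were lower and 4.07% higher, so that the 2 higher are near the share of all genes. Besides Fos, the lower ones were Fosb (-0.40, a partner in AP-1), Egr2 (-0.65) and Egr4 (-0.29), both zinc finger factors, and Nfil3 (-0.21), and none of these 4 passed an FDR of 0.1. Fosb ranged from 8.68 to 9.41 in CD F2 and from 8.23 to 9.0 in MD F2, and Egr2 from 6.40 to 8.05 and from 6.27 to 6.82. Both groups of arrays overlapped. Trib1 (0.27) and Csrnp1 (0.16) were higher at that threshold. Arc, the activity-regulated cytoskeletal gene, had an effect of -0.27 (95% interval -0.56 to 0.02), Npas4 of 0.02 (-0.31 to 0.35) and Bdnf of -0.10 (-0.37 to 0.18). By slide the Fos difference was -1.02, -0.72 and -0.41, and it was -0.57 with the choroid plexus level as a covariate, where Fosb was at -0.42 and Egr2 at -0.20 (FDR = 0.612 in limma). The Fos difference was -0.63 over the 9 arrays with Y-linked signal.

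The Fos promoter is printed for the half-site TGACG of the cAMP response element, through which CREB acts on activity-regulated genes. These letters, on either strand, were in 21 of 34 promoters of immediate early genes found (61.8%) and in 21.0% of all promoters. In the RefSeq window (GRCm38.p6) they occurred at 2 places, in capitals.
Fos, chr12:85473640-85473939, plus strand: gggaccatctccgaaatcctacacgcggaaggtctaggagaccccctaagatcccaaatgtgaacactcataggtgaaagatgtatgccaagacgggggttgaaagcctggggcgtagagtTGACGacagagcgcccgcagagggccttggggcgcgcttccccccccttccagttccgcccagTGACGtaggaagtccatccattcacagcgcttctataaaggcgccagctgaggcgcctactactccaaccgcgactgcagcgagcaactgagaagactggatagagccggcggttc

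Neuronal lists had few genes past an unadjusted p of 0.05, a threshold at which 4.53% of all genes were lower and 4.07% higher, and their named members are given as values with nothing read for the list. Of 37 glutamate receptor genes and their auxiliary subunits 0 had an unadjusted p under 0.05 in limma, with a median effect of 0.01. With the choroid plexus level as a covariate, 10 of them were lower and 3 higher at that threshold. In that fit 2769 of all 24159 probes were lower and 2854 higher at it, so these counts are not set beside the shares above. Of 22 genes of GABA receptors and synthesis Abat, which degrades GABA, was lower (-0.22) and Gabra5 higher (0.20) at p under 0.05. The 13 dentate granule cell markers (median 0.06) had 0 and the 17 CA field markers (median 0.00) had 1 gene at that threshold, Man1a (-0.21), whose dimmer probe gave 0.20. Among 18 interneuron markers Penk (0.18) and Cck (0.14), both neuropeptide genes, were higher. Among 10 neurotrophin genes Sorcs3, a sorting receptor of the same family as sortilin, was higher by 0.37 (9.22 to 9.58 in CD F2, 9.48 to 9.86 in MD F2) and Ntf3 by 0.28, and neither passed an FDR of 0.1 (0.258 and 0.397 in limma).

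Tissue bordering the hippocampus was described by lists for thalamus, striatum and neocortex, with medians of -0.02, 0.04 and 0.02. Zic1 (-0.62) and Rora (-0.21) of the thalamus list and Ppp1r1b (-0.49) of the striatum list were lower, and Drd1 (0.31) of the striatum list was higher, at an unadjusted p under 0.05. The striatum members thus differed in both directions. In 30 genes of neurogenesis and cell division Ccna2, a cyclin (0.24), and Mcm5, a subunit of the replicative helicase (0.19), were among those higher at that threshold. Of 74 genes of oxidative phosphorylation 3 were higher and 1 lower, with a median of 0.04. Of 33 genes of heat shock and the unfolded protein response 1 was lower, Hsph1 (-0.17). Since 4.53% of all genes were lower and 4.07% higher at an unadjusted p under 0.05, nothing is read from these counts for the lists.

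The pathway that the diet supplies had a median effect of 0.00 over 48 genes of the methionine cycle and one-carbon metabolism. At an unadjusted p under 0.05, 6 of the 48 were lower and 1 higher, against 4.53% and 4.07% of all genes. The largest effects were those of the folate receptors Folr1 (-2.23) and Folr2 (-1.30, FDR = 0.247 in limma). Folr1 is also a member of the choroid plexus list, and both were high on the arrays on which that list was high. Folr1 ran from 8.11 to 12.79 in CD F2 and from 7.54 to 11.61 in MD F2, and Folr2 from 6.37 to 8.58 and from 5.85 to 7.81. The part of the choroid plexus level in these differences was not tested. Mmadhc (-0.24), which traffics cobalamin, Ggh (-0.29), a folate hydrolase, Tcn2 (-0.27), a cobalamin carrier, and Mtap (-0.23), of methionine salvage, were lower and Mthfs (0.18) higher. Mat2a, the enzyme that makes S-adenosylmethionine, ran from 14.15 to 14.49 in CD F2 and from 14.22 to 14.45 in MD F2 at its brightest probe, with an effect of -0.01 (95% interval -0.17 to 0.15), and Mat2b, its regulatory subunit, had an effect of 0.03 (-0.15 to 0.21). A dimmer Mat2a probe gave -0.36 (limma, unadjusted p = 0.025, FDR = 0.475). It ran from 10.68 to 10.96 in CD F2 and from 9.76 to 10.83 in MD F2.

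Among 24 genes of the DNA methylation machinery 2 were higher and 0 lower at an unadjusted p under 0.05, where 4.07% of all genes were higher, so that 2 genes say nothing of the list. They were the DNA glycosylases Tdg (0.33) and Mbd4 (0.21). Tdg ran from 7.56 to 8.09 in CD F2 and from 8.03 to 8.47 in MD F2 (limma, FDR = 0.334), and its dimmer probes gave 0.15 and 0.03. The methyltransferases Dnmt1 and Dnmt3a had effects of -0.01 (-0.33 to 0.31) and -0.10 (-0.22 to 0.02). Of 48 imprinted genes 4 were lower and 2 higher, among them Igf2, Mest (-0.31) and Magel2 (-0.24). Of 25 genes of zinc transport and metallothioneins 2 were lower, Slc39a4 (-1.54) and Slc30a7 (-0.23), both zinc transporters. Slc39a4 ran from 6.77 to 10.09 in CD F2 and from 6.29 to 9.79 in MD F2, a spread like that of the choroid plexus genes. In the glucocorticoid list of 20 genes Ddit4 (-0.66) and Pdk4 (-0.28) were lower and Zbtb16 (0.22) higher at an unadjusted p under 0.05, counts that are read as no result about the list beside the 4.53% and 4.07% of all genes.

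**Figure D4:**
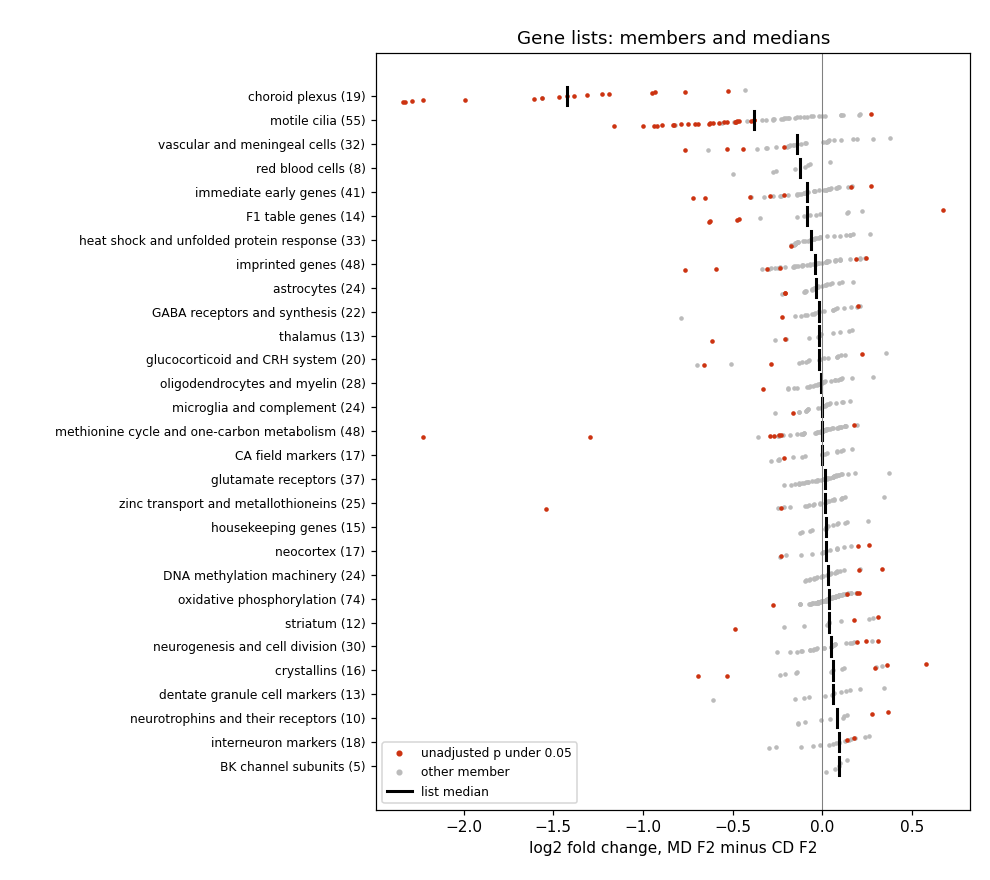
Effects (x axis, log2 fold change MD F2 minus CD F2) of the members of the gene lists, with the number of tested genes in brackets, members at an unadjusted p under 0.05 in red, the others in grey and the list median as a black bar. The choroid plexus (-1.42) and motile cilia (-0.38) medians stand left of the others, which lie between -0.14 and 0.10.

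The BK potassium channel, of which Kcnmb2 codes for the inactivating beta subunit, was measured through 5 genes, with effects from 0.02 to 0.14 and 0 genes at an unadjusted p under 0.05 in limma. Kcnmb2 ran from 7.01 to 7.61 in CD F2 (median 7.33) and from 7.37 to 7.55 in MD F2 (median 7.41), an effect of 0.14 (95% interval -0.08 to 0.35). These values are those of the probe A_55_P2112524. The study's list of genes changed in F1 holds Kcnmb2 through another probe, which was not among those tested in F2. Kcnma1, the pore subunit, had an effect of 0.02 (-0.13 to 0.18) and Kcnmb4 of 0.07 (-0.07 to 0.21). Of 15 housekeeping genes 0 had an unadjusted p under 0.05, and Actb, Gapdh, B2m and Gusb had effects of 0.08, 0.09, -0.11 and 0.02. The size of effect that these arrays could show is set by the intervals, which reached a median of 0.23 to either side. For 19076 probes (79.0%) the whole 95% interval lay within 0.5 of 0, and for 23516 (97.3%) within 1.

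The diet effect in F2 was set beside that in F1 with a test of the difference, F2 minus F1, over 24109 probes above background on all 24 arrays. The difference was negative for 70 probes (0.290%) and positive for 49 (0.203%) at FDR under 0.1. Of these, 117 had effects of opposite sign in the generations, which a choice by the size of the difference favours. The generations shared neither slides nor scans, so diet was compared within a generation only. The smallest p belonged to Crygn, which was 0.41 higher in MD F1 than in CD F1 and differed between the generations by -1.09 ± 0.15 (SE; limma, FDR = 0.0027). Ajuba (-0.92), Sfrp1 (-1.24), Msx1 (-1.11) and the probe A_55_P2097938 (-1.83) of those called in F2 also differed, Hoxb3 was not above background on all 24 arrays, while for Fos (-0.40), Prag1 (-0.36) and Zfp882 (-0.54) the difference did not pass the threshold and all 3 had F1 effects below 0 (-0.32, -0.25 and -0.40).

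Cilia genes were the list with the most negative differences. Of 55 cilia genes 18 had a negative difference at FDR under 0.1 and 0 a positive one, against 0.290% and 0.203% of all probes. The 18 included Foxj1 (0.46 in F1, difference -1.04), Cfap52 (-1.52) and Dnaaf3 (-1.33). The cilia list had a median effect of 0.30 in F1 and -0.38 in F2. In the F2 fit with the choroid plexus level as a covariate its median was -0.02. The choroid plexus list had a median of 0.34 in F1 and -1.46 in F2, and 1 of its 19 genes, Ace, passed the threshold (-1.29). Its level ran from 8.89 to 10.77 in CD F1, 8.95 to 11.68 in MD F1, 8.99 to 12.60 in CD F2 and 8.79 to 11.92 in MD F2 with all arrays normalized together. The positive differences included Stk32c, a kinase gene (1.18), Spin1 (1.04), Pdzd2 (0.89), Tdg (0.86) and Pa2g4 (0.70). With the choroid plexus level as a covariate 231 probes were called for the difference, 67 of the 119 among them. Leaving out 1 F2 array gave 66 calls (without MD F2 replicate 4 or 5) to 212 (without MD F2 replicate 2), and also 68, 79, 73, 77 and 192 without CD F2 replicate 3, CD F2 replicate 5, MD F2 replicate 1, MD F2 replicate 3 and CD F2 replicate 6.

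**Figure D5:**
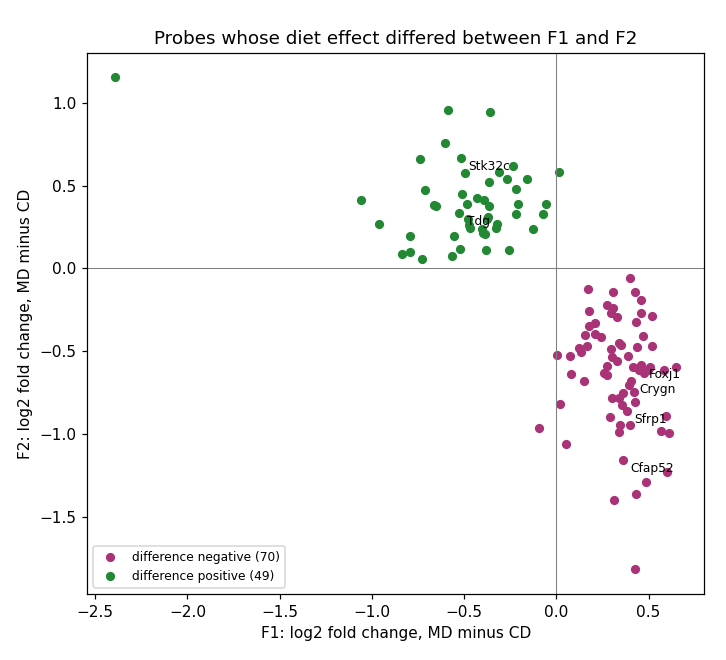
Diet effects in F1 (x axis) and F2 (y axis), both as log2 fold change MD minus CD, of the 119 probes whose effect differed between the generations at FDR under 0.1, purple for a negative and green for a positive difference. All but 2 lie in the quadrants of opposite sign, as the choice by the difference favours.

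Of the 33 probes in the study's list of genes changed in F1, 24 were tested in F2. The list was chosen on the F1 arrays, which the F2 comparison does not use. None of the 24 passed an FDR of 0.1 in F2 (limma). An unadjusted p under 0.05 was reached by 6 of them and by 9.09% of all probes tested. The 6 probes that were higher in MD F1 were all lower in MD F2, with a median of -0.53, and the 18 that were lower in MD F1 had a median of -0.03 in F2, with 7 above 0. The 6 were those of Kif9, Ccdc153, 1700012B09Rik, Capsl (-0.48), Stk33 (-0.14) and Lrrc43 (-0.03). Ccdc153 is also in the cilia list, and Capsl was at 0.0225 with the choroid plexus level as a covariate. Whether the 6 are separate from the cilia genes was not tested. Of the 24, those with a symbol and the smallest p in F2 were Stk32c (0.68, 7.95 to 8.25 in CD F2 and 7.92 to 9.03 in MD F2) and Kif9, a ciliary kinesin (-0.61), Ccdc153 (-0.63) and 1700012B09Rik (-0.63). Ccdc153 ran from 9.76 to 10.73 in CD F2 and from 9.21 to 9.72 in MD F2, without overlap. The other 3 Kif9 probes gave -0.14 to -0.55. For 8 of the 24 the difference between the generations passed the threshold, where 0.290% of all probes were negative and 0.203% positive. The F1 arrays on which the list was chosen enter this difference, so the choice favours a large one.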

How the data were processed

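RNA of hippocampal pools was hybridised to 1-colour Agilent mouse arrays, and the deposited files hold per-spot processed signal intensity and background flags that the authors extracted with Feature Extraction (version 10.7.3.1 per the file headers). From these, control and irregular spots were left out, spots of a probe averaged, and log2 intensities quantile-normalized over the 12 F2 arrays. Probes had to be well above background on all 12. Diet and the lh/rh code were fitted in limma 3.58.1 (R 4.3.3) with empirical Bayes and Benjamini-Hochberg adjustment over all probes tested, called at FDR under 0.1. The difference between generations was an interaction over 24 arrays. The pipeline was tested on simulated data. Named were the called probes, the 12 with a symbol and smallest p per direction, the 3 smallest per list, fixed genes and genes of the study's F1 list, and further list members were chosen after their values were seen. The members and lists were chosen with earlier results of these data known. Alternatives covered scaling, background, filter, model terms and left-out arrays, and the authors' deposited table of normalized intensities, taken to log2. Precision is limited by the number of arrays.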

Additional observations from a re-analysis of the deposited data

Results flagged for a closer look

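In 122 groups of 6 arrays, 9 values stood apart from their group, and chance does this in about 1 in 20 groups. The spots above background numbered 28000 on CD F2 replicate 6 and 27383 on MD F2 replicate 3. MD F2 replicate 2 stood above the other MD F2 arrays in the choroid plexus level (11.702), the motile cilia level (8.7577), Cfap52 (9.339) and Igfbp2 (13.617). The red blood cell level was 15.324 on CD F2 replicate 4, the immediate early gene level 10.362 on MD F2 replicate 1, and Pa2g4 was 9.692 on CD F2 replicate 3.

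The diet effect differed between the generations for 32 probes of genes named in the text (interaction in limma, FDR under 0.1). The F2 minus F1 difference was negative for Crygn (-1.089), Ajuba (-0.919), Sfrp1 (-1.243), Msx1 (-1.114), Ace (-1.29) and the probe A_55_P2097938 (-1.829). It was also negative for Foxj1 (-1.045), 1110017D15Rik (-1.102), Cfap52 (-1.518), Dnaaf3 (-1.328), Ccdc153 (-1.112), 1700012B09Rik (-1.194), Capsl (-0.988), Cfap161 (-0.912), Dnaic2 (-0.922), Cfap45 (-0.609), Cfap126 (-1.347), Dnali1 (-1.179), Dynlrb2 (-1.171), a pair of Kif9 probes (-1.104 and -0.817) and a pair of Stk33 probes (-0.733 and -0.567). It was positive for Pdzd2 (0.888), Spin1 (1.045), Pa2g4 (0.699), Spryd7 (0.442), Cryba4 (0.566), Stk32c (1.184), Tdg (0.858), Drd1 (0.68) and the dimmer Man1a probe (0.748).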

How the results depend on the processing

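The 9 calls kept their sign in every alternative in which they were tested, but their number did not hold. It was 0 with diet as the only term (1865 probes at an unadjusted p under 0.05), without a filter on dim probes, with probes above background on at least 6 arrays, with normexp on the median signal (1679), in the lh arrays alone, and without the 2 arrays with fewest spots (1400, or 1756 with the filter over the other 10). It was 36 with the sex measure as a covariate, 2 with no scaling, 50 with array weights, 4 with a trended and robust prior, 222 in the fit of all 24 arrays, 3 at FDR under 0.05, 14 in the rh arrays alone, 14 in the arrays with Y-linked signal alone and 1505 with the choroid plexus level as a covariate, and 0 to 25 when each array was left out. Probes higher at p under 0.05 numbered 99 with no scaling, 736 without the 2 arrays and 2854 with that covariate, and lower ones 468 with no scaling, 1623 in the arrays with Y-linked signal and 2769 with the covariate. With the covariate the choroid plexus median was 0.1201 and the cilia median -0.02093. The generation difference had 46 calls with scaling to the 75th percentile, 57 without the filter, 22 with group means only, 48 at FDR under 0.05, 231 with the covariate and 66 to 212 when each array was left out. The replicate numbers did not pair the samples: with the replicate block the F2 calls were 0 (1746 at p under 0.05) and the generation difference had 146 calls, and the own number was the best match for 2 of 6 pairs. Capsl went from -0.48 to 0.0225 with the covariate. The other signs turned for effects near 0. With the covariate these were Gapdh (-0.1707), Actb (-0.1415), Mat2a (0.07092) and the Zfp882 probe A_55_P2118896 (-0.02965), and in the rh arrays Gapdh (-0.03818), Actb (-0.09076), Mat2a (0.1566) and that Zfp882 probe (-0.4618), and in the lh arrays Kcnma1 (-0.08072). With scaling to the 75th percentile they were Gusb (-0.001735), Mat2a (0.05689) and A_55_P2118896 (-0.04251), and with no scaling Gusb (-0.04526), Mat2a (0.01336), A_55_P2118896 (-0.08604) and the Zfp882 probe A_55_P2321004 (-0.0215). A_55_P2321004 was -0.05358 in the arrays with Y-linked signal, A_55_P2118896 was -0.1409 without the 2 arrays, and Mat2a was 0.004419 with the sex measure and 0.005653 with array weights. When each array was left out, A_55_P2321004 ran from -0.01356 to 0.153, Mat2b from -0.01783 to 0.07249, Kcnma1 from -0.004495 to 0.05562, Mat2a from -0.05242 to 0.02312 and A_55_P2118896 from -0.1353 to 0.1332. Causes were not tested. The planned normexp on the mean signal was not run because the files used here hold no mean signal. The covariate and the Y-linked subset were chosen after seeing the data.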
